A study of Mus musculus with 8 samples.

Results

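The genes described here are spliced noncoding genes that carry small nucleolar RNAs (snoRNAs) in their introns. They were chosen by symbol as Gas5, Snhg1, Snhg3, Snhg4, Snhg5, Snhg6, Snhg8, Snhg12, Snhg15 and Snhg20. All 10 symbols were among the 55401 genes of each deposited table, and Snhg4 appeared under 2 gene identifiers, which gives 11 entries. Every entry reached a TPM (a share of all transcripts, corrected for transcript length) of at least 1 in at least 4 of the 8 dishes and so was among the 12122 genes tested.

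The dishes held AML12 cells, a line derived from mouse hepatocytes and grown with dexamethasone, insulin, transferrin and selenium. The Opti-ELF-WMF group (n = 4 dishes, called exposed below) spent 1 h under a weak magnetic field with pulses of 4 msec that stepped from 1 to 8 Hz and peaked at 100 mG. The control group (n = 4 dishes) shared its cell batch with the exposed group. It was kept in a separate incubator, matched in model, whose stimulator was not switched on. Exposure and incubator therefore cannot be told apart. Libraries were made from polyadenylated RNA, and sequencing depth cannot be read from TPM, which summed to the same total in every dish.

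As background, most snoRNAs are released from introns once a host transcript has been spliced, and then guide the chemical modification of ribosomal and spliceosomal RNAs. Box C/D snoRNAs direct ribose methylation, and box H/ACA snoRNAs direct the change of uridine to pseudouridine. The exons of noncoding hosts encode no conserved protein, but ribosomes translate short reading frames in several of them and the spliced RNA is then removed by nonsense-mediated decay, for which Gas5 is the classic case.

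GENCODE M21 (build GRCm38, the assembly that mm10 names) places 33 snoRNA or small Cajal body RNA (scaRNA) genes inside the 10 members. All 33 lie in an intron of at least 1 annotated transcript, and 30 of them also lie inside an exon of another, longer or unspliced, transcript of the same host. Gas5 holds 10, Snhg1 holds 8, Snhg12 holds 5, Snhg3, Snhg4 and Snhg5 hold 2 each, and Snhg6, Snhg8, Snhg15 and Snhg20 hold 1 each. The count includes overlapping entries of Snord80 in Gas5 and of Snora16a in Snhg12. The spliced products are short: the transcript with the most exons has 12 exons and 502 bases in Gas5, and 10 exons and 605 bases in Snhg1.

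**Figure D1:**
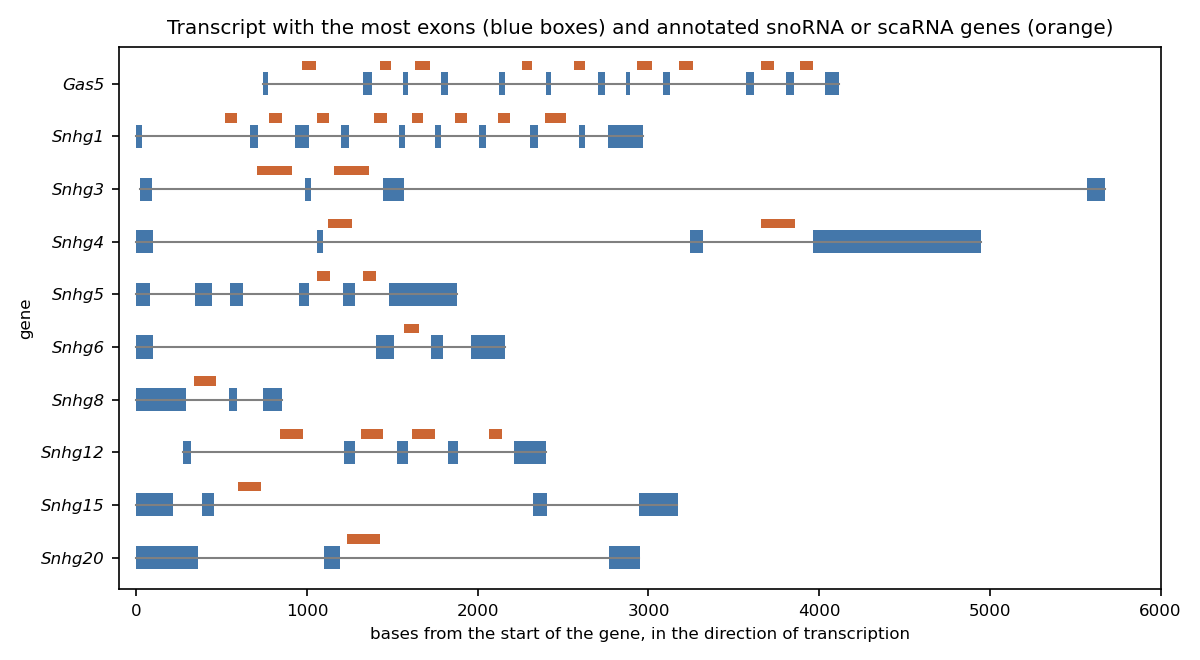
Annotated transcript with the most exons for each of the 10 members (blue boxes, exons; grey line, span) and the snoRNA or scaRNA genes inside the gene (orange), by distance in bases from the start of the gene. Gas5 and Snhg1 have the most exons, 12 and 10, with snoRNA genes spread along the introns.

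The following snoRNAs are shown because they are what separates these hosts from other noncoding RNAs, with at least 1 for each of Gas5, Snhg1, Snhg5, Snhg6, Snhg12, Snhg3 and Snhg8. Sequences are GENCODE M21 transcripts on GRCm38, written 5′ to 3′. Capitals mark a C box (TGATGA within the first 20 bases) and a D box (CTGA starting within the last 15 bases), or, where neither is present, an ACA that lies 3 bases before the end. These letters were searched on the transcribed strand alone.
Snord47 of Gas5 (chr1:161038082-161038158, plus strand): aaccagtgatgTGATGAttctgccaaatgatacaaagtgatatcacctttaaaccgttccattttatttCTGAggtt
Snord22 of Snhg1 (chr19:8725866-8725991, plus strand): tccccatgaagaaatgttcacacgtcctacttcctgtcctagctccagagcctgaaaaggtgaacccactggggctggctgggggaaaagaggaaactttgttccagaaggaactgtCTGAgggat
Snord50a of Snhg5 (chr9:88521529-88521600, minus strand): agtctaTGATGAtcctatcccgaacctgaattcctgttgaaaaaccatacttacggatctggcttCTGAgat
Snord50b of Snhg5 (chr9:88521797-88521868, minus strand): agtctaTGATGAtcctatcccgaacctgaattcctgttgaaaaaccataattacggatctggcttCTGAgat
Snord87 of Snhg6 (chr1:9942463-9942549, minus strand): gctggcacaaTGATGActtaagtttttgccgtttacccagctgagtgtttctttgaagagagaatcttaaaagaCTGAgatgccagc
Snord99 of Snhg12 (chr4:132310691-132310764, plus strand): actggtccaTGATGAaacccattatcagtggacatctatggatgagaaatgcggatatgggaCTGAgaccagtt
Snora73b of Snhg3 (chr4:132352322-132352526, minus strand): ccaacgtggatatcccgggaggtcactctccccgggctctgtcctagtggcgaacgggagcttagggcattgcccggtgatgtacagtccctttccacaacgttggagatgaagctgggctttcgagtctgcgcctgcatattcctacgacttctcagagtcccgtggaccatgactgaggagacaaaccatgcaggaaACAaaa
Snora24 of Snhg8 (chr3:123507937-123508066, minus strand): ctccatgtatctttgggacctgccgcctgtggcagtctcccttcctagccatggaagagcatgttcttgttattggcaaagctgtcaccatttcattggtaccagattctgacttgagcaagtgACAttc

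The search covered 31 of the 33 snoRNA and scaRNA transcripts of the members, since the 2 inside Snhg4 were not analysed here. Of these 31, 17 held both the C and the D box, 5 held only the D box, 8 held neither box and ended in ACANNN, and 1 had none of these. Among all 1558 annotated snoRNA and scaRNA transcripts, 19.9% held both boxes. Of these 1558, 19.3% ended in ACANNN, counted whether or not a box was present, unlike the 8 above. Snord22 of Snhg1 had only the D box under this rule. The search took exact letters, so a box with other letters or outside these stretches was not counted. Snord50a and Snord50b, the pair of guides inside Snhg5, are 72 bases long and differ at 1 position, C50A, counted from 1 at the 5′ end of Snord50a.

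The first bases of the hosts are shown because hosts of snoRNAs, like ribosomal protein genes, often start at a cytosine followed by a run of pyrimidines, the terminal oligopyrimidine start that ties translation to growth signals. RefSeq start windows (build GRCm38.p6) were available for 8 of the 10 members, with no entry for Snhg4 and Snhg6. Each window runs 5′ to 3′ from 10 bases before the annotated start to 30 bases from it, and capitals mark its longest unbroken run of C or T on the transcribed strand.
Gas5 first start (chr1:161034591-161034630, plus strand): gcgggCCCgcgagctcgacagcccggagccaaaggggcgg
Gas5 second start (chr1:161035156-161035195, plus strand): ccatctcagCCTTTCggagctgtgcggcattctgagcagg
Snhg1 (chr19:8723477-8723516, plus strand): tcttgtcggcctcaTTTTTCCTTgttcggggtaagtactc
Snhg3 (chr4:132353657-132353696, minus strand): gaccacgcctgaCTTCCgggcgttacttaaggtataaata
Snhg5 (chr9:88522868-88522907, minus strand): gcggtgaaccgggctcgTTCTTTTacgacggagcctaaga
Snhg8 (chr3:123508307-123508346, minus strand): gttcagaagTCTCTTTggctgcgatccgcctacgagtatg
Snhg12 (chr4:132308668-132308707, plus strand): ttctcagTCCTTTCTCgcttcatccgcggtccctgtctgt
Snhg15 (chr11:6528731-6528770, minus strand): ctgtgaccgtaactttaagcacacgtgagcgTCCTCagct
Snhg20 (chr11:117076773-117076812, plus strand): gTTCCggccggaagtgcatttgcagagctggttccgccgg

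A run of at least 6 bases of C or T was present in 5 of these 9 windows, or 55.6%, against 35.2% of all 32851 windows in the table. The runs of at least 6 belonged to the second start of Gas5 and to Snhg1, Snhg5, Snhg8 and Snhg12, with 9 bases in Snhg1 and in Snhg12. The marked run covered the annotated start itself in 3 of the 9 windows (second start of Gas5, Snhg8 and Snhg12), and began after it in Snhg1 and Snhg5. Among all 32851 windows, 6.46% had a longest run of at least 6 that covered the start. Windows of protein-coding snoRNA hosts held a run of at least 6 at any position in 13 of 24 cases (54.2%), and those of other noncoding hosts in 11 of 14 (78.6%), beside the 35.2%. Their longest run covered the start in 4 of 24 and in 4 of 14, beside the 6.46%. Of the members with a run of at least 6, Gas5, Snhg1 and Snhg12 were lower in the exposed dishes at an unadjusted limma p under 0.05. Snhg5 and Snhg8 were not. Among members without such a run, Snhg20 was lower by that rule, and Snhg3 and Snhg15 were not. Whether the run goes with the difference was not tested.

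The members differed widely in level. Averaged over the 8 dishes, Gas5 stood at 446 ± 18.6 TPM (SD, n = 8) and Snhg1 at 285 ± 15.9 TPM, and together they made up 40.4% and 25.8% of the members' summed TPM. Both were separate from every other member in every dish. Snhg8 (75.1 ± 4.61 TPM), Snhg3 (65.3 ± 9.04 TPM) and Snhg5 (62.9 ± 2.7 TPM) followed, and the ranges of neighbours in this order overlapped. Snhg15 came next at 55.9 ± 2.31 TPM, below Snhg5 in each of the 8 dishes although their ranges overlapped. Its range did not overlap that of Snhg12 (34.2 ± 2.46 TPM), whereas Snhg12 and Snhg4 (33.4 ± 4.81 TPM) could not be ordered beyond their spread. Snhg20 (26.6 ± 4.12 TPM) and Snhg6 (21.2 ± 2.27 TPM) were the lowest.

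The comparison of exposed with control dishes asks how a 1 h exposure goes with the level of each host transcript. No gene of the 12122 tested had a limma adjusted p under 0.05 (0%), and so no member did (0 of 10). At an unadjusted p under 0.05, 5 of the 10 members were lower in the exposed dishes (Gas5, Snhg1, Snhg6, Snhg12 and Snhg20), where 443 of all genes tested, or 3.65%, were lower by the same rule. None of the 10 was higher, where 1451 of all genes tested, or 12%, were higher. The median log2 difference was −0.12 over the members and 0.03 over all genes tested. The count of 5 rested on single dishes: it was 0 without exposed replicate 2, 1 without control replicate 2, 2 without control replicate 3, and 3 without exposed replicate 3 or exposed replicate 4. Because TPM is a share of the RNA in a dish, fewer cells of a kind and less RNA per cell cannot be told apart in any of these values.

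Among the hosts of box C/D snoRNAs, Gas5 (ENSMUSG00000053332; chr1:161034422-161038539, plus strand) read 445, 473, 464 and 449 TPM in control replicates 1 to 4 and 433, 412, 441 and 452 TPM in exposed replicates 1 to 4. Exposed replicates 1, 2 and 3 lay below every control dish, and exposed replicate 4 lay among the control dishes. The mean was 458 ± 13.1 TPM (SD, n = 4) in control and 435 ± 16.6 TPM in exposed dishes. Between conditions its log2 difference was −0.08 (95% interval −0.15 to −0.00), with a limma adjusted p of 0.307.

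Snhg1 (ENSMUSG00000108414; chr19:8723475-8726443, plus strand), which holds 8 snoRNA genes, read 289, 308, 296 and 287 TPM in the control dishes and 289, 271, 255 and 284 TPM in the exposed dishes. Exposed replicates 2, 3 and 4 were below every control dish, while exposed replicate 1 was level with control replicates 1 and 4, so the groups overlapped. On the log2 scale the difference was −0.10 (95% interval −0.19 to −0.01), with a limma adjusted p of 0.258, and it was −0.07 without exposed replicate 3.

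Snhg6 (ENSMUSG00000098234; chr1:9941959-9944118, minus strand), the host of Snord87, read 22.6, 24.7, 23.5 and 19.9 TPM in control dishes and 20.5, 18.1, 19.1 and 21 TPM in exposed dishes. Control replicate 4 was lower than exposed replicates 1 and 4, and the other control dishes were above all exposed dishes. The log2 difference was −0.20 (95% interval −0.35 to −0.04), with a limma adjusted p of 0.222, the smallest among the members.

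Snhg5 (ENSMUSG00000097195; chr9:88521050-88522929, minus strand), the host of Snord50a and Snord50b, had the narrowest exposed group: its exposed dishes lay between 62.6 and 64.7 TPM and its control dishes between 57.5 and 66.7 TPM. All exposed dishes thus lay within the control range. Its log2 difference of 0.03 (95% interval −0.07 to 0.13) had a limma adjusted p of 0.797, and it was the only member entry of the 10 above 0. The difference was −0.00 after scaling by the upper quartile, −0.01 without control replicate 4 and 0.06 without control replicate 3.

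Snhg12 (ENSMUSG00000086290; chr4:132308623-132311024, plus strand) carries both kinds of guide, the H/ACA RNAs Snora16a, Snora44 and Snora61 and the C/D RNA Snord99. It read 34.7, 38.3, 33.7 and 36.4 TPM in control dishes and 35.0, 31.2, 33.1 and 31.2 TPM in exposed dishes. Exposed replicates 2, 3 and 4 were below every control dish, and exposed replicate 1 was above control replicates 1 and 3. This gave a log2 difference of −0.13 (95% interval −0.24 to −0.01), with a limma adjusted p of 0.263.

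Among the hosts of H/ACA snoRNAs alone, Snhg3 (ENSMUSG00000085241; chr4:132348014-132353686, minus strand) read 69.1, 62.7, 82.5 and 65.7 TPM in control dishes and 64.6, 49.5, 63.4 and 64.9 TPM in exposed dishes. Control replicate 3 was the highest of all and exposed replicate 2 the lowest, and the other exposed dishes lay between control replicates 2 and 4. The log2 difference was −0.21 (95% interval −0.44 to 0.02), with a limma adjusted p of 0.372. It was −0.11 without exposed replicate 2 and −0.13 without control replicate 3. Of the annotated exonic bases of Snhg3, 13.7% are also exonic in Rcc1 on the same strand, so reads there could belong to either gene.

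Snhg8 (ENSMUSG00000104960; chr3:123507552-123508404, minus strand), the host of Snora24, ranged from 66.1 to 80.8 TPM in control and from 72.3 to 76.7 TPM in exposed dishes, with a log2 difference of −0.03 (95% interval −0.16 to 0.10) and a limma adjusted p of 0.879. Snhg15 (ENSMUSG00000085156; chr11:6525591-6528760, minus strand), the host of Snora9, ranged from 53.7 to 60.8 TPM in control and from 53.2 to 56.6 TPM in exposed dishes, with a log2 difference of −0.03 (95% interval −0.12 to 0.07) and a limma adjusted p of 0.811. In both genes the groups overlapped and the difference of means was smaller than the control SD. Without control replicate 2 the log2 differences of Snhg8 and Snhg15 were 0.01 and 0.01, and without control replicate 1 they were −0.09 and −0.05. Under the other 3 scalings Snhg8 lay between −0.06 and −0.05, and Snhg15 was −0.06.

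Snhg20 (ENSMUSG00000086859; chr11:117076008-117078955, plus strand), which contains a scaRNA gene, read 24.8, 28.2, 34.8 and 28.3 TPM in control dishes and 26.2, 20.5, 25.3 and 24.6 TPM in exposed dishes. Exposed replicates 2 and 4 were below every control dish, and the other exposed dishes were above control replicate 1 alone. Its log2 difference of −0.25 (95% interval −0.48 to −0.02) was the largest in size among the 10, with a limma adjusted p of 0.274. Without control replicate 3 it was −0.16, smaller in size than that of Snhg6 (−0.18). Without control replicate 4 it was −0.2575, smaller in size than that of Snhg4 (−0.2615).

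**Figure D2:**
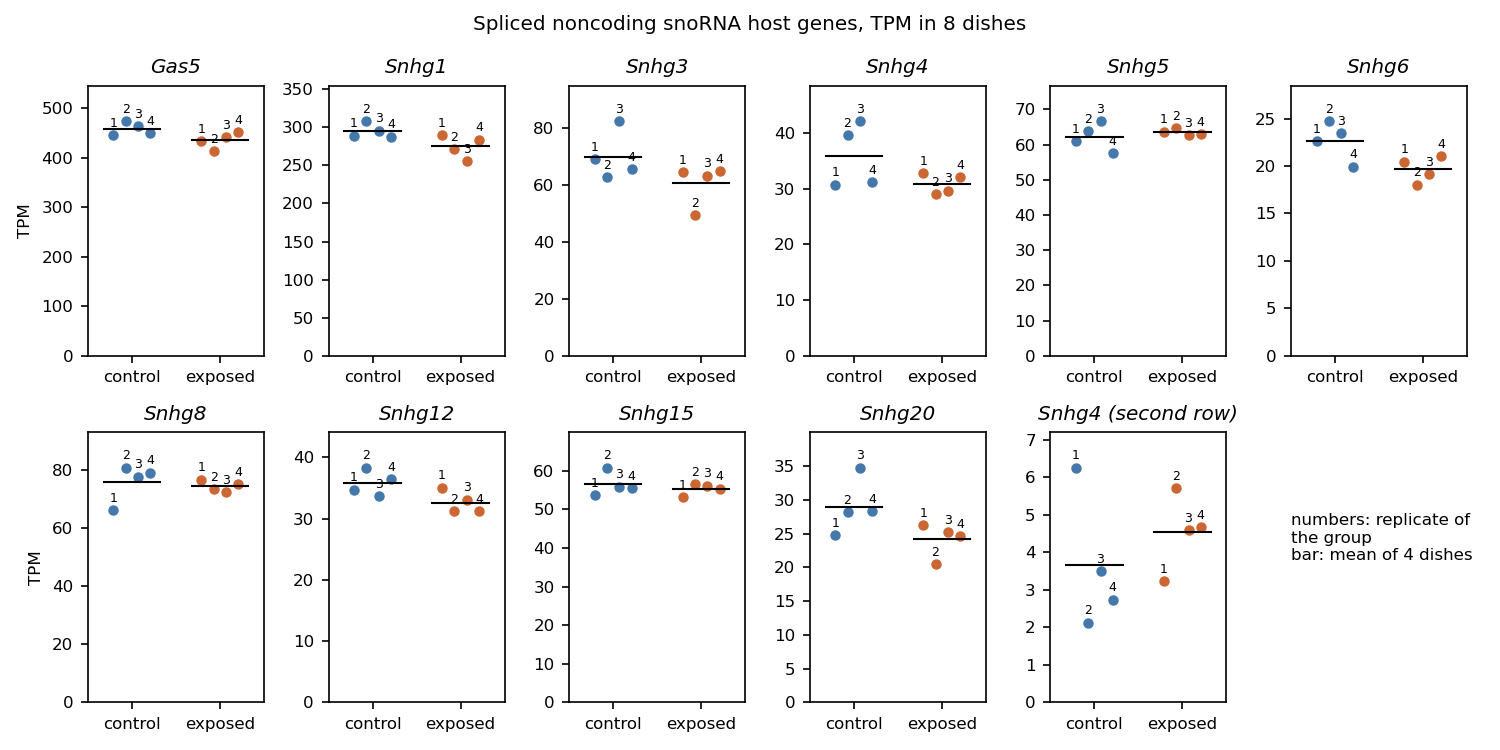
TPM of the 11 entries in each of the 8 dishes (points, numbered by replicate; bar, mean of 4 dishes), control in blue and exposed in orange, each axis from 0. The groups overlapped for every entry. Exposed replicate 2 was the lowest of the 8 dishes for 5 of the 10 members, with no share over all genes tested beside this count.

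Snhg4, the host of Snora74a, lies on chromosome 18. Its noncoding entry (ENSMUSG00000117869; chr18:35553371-35558316, plus strand; named AC121821.1 in GENCODE M21) read 30.7, 39.6, 42.1 and 31.2 TPM in control dishes and 32.8, 29.0, 29.6 and 32.0 TPM in exposed dishes. The control dishes fell into a higher and a lower pair, and exposed replicates 1 and 4 were above the lower pair. The log2 difference was −0.20 (95% interval −0.42 to 0.02), with a limma adjusted p of 0.372, and it was −0.12 without control replicate 3. Of the exonic bases of this noncoding entry, 5.27% are also exonic in the other Snhg4 entry on the same strand. They make up 11.4% of the exonic bases of that other entry, so reads there could belong to either.

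The second entry with the symbol Snhg4 (ENSMUSG00000117694; chr18:35553404-35587708) is a protein-coding gene in GENCODE M21, named Gm28285, and 81.0% of its exonic bases are also exonic in Matr3, so it was kept out of the counts over the 10 members. It read 6.25, 2.12, 3.5 and 2.74 TPM in control dishes and 3.23, 5.71, 4.58 and 4.67 TPM in exposed dishes. Control replicate 1 was the highest of all 8, and the other control dishes were below 3 of the 4 exposed dishes. The log2 difference was 0.31 (95% interval −0.23 to 0.85), with a limma adjusted p of 0.586, and it was 0.55 without control replicate 1 and 0.14 without control replicate 2. With this entry included, the median over the 11 entries was −0.10.

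The groups overlapped for all 10 members: in 0 of 10 were all exposed dishes below all control dishes, where 1.86% of all genes tested were so separated, and in 0 of 10 were they all above, where 8.01% were. No member had its highest value of the 8 dishes in an exposed dish, with 6 of the highest values in control replicate 2 and 4 in control replicate 3. In each exposed dish 8 or 9 of the 10 members were below their control mean, against 10, 2, 2 and 8 of 10 in control replicates 1 to 4. No share over all genes tested stands beside these counts per dish, so they describe the members alone.

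**Figure D3:**
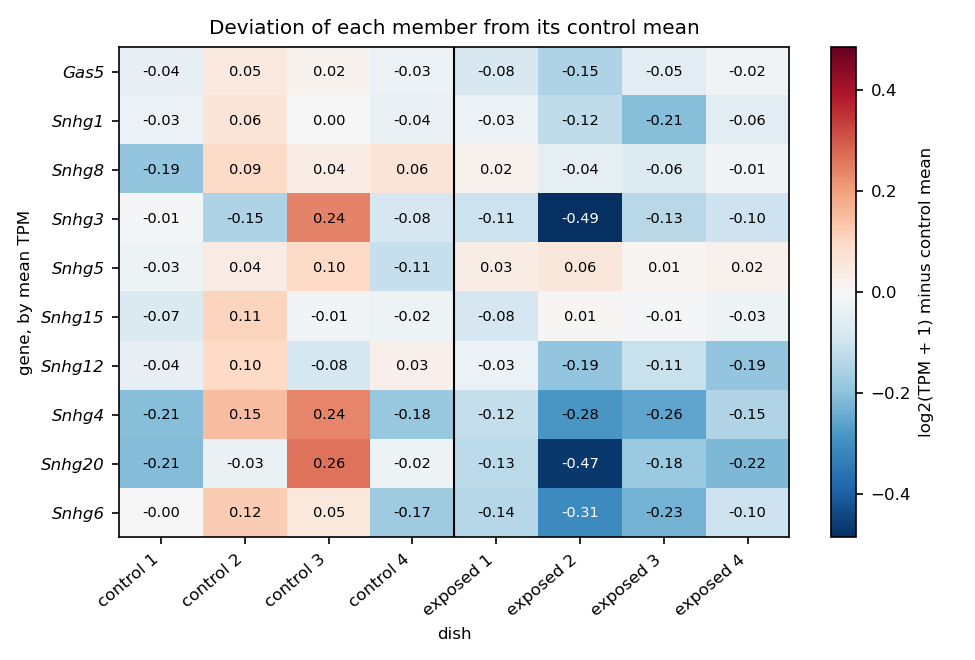
Log2(TPM + 1) of each of the 10 members minus its control mean, in each dish, with members ordered by mean TPM. Exposed replicate 2 holds the lowest values, at −0.49 for Snhg3 and −0.47 for Snhg20, while control replicates 1 and 4 are also mostly below 0.

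Summed over the 10 members, TPM was 1097, 1180.4, 1176 and 1110.3 in control replicates 1 to 4 and 1095, 1026, 1058 and 1103 in exposed replicates 1 to 4. Exposed replicate 2 was the lowest, and exposed replicate 4 was above control replicate 1. The sum averaged 1141 ± 43.5 TPM (SD, n = 4) in control and 1071 ± 35.5 TPM in exposed dishes.

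Deviations of single dishes from their group's mean were compared between members. After subtraction of each group's mean, Pearson's r between members over the 8 dishes was above 0 in 41 of the 45 pairs, with a median of 0.39 and a range from −0.45 to 0.82. Snhg4 followed the mean of the other members most closely (r = 0.92, 8 dishes) and Snhg12 least (r = 0.19, 8 dishes). These correlations are descriptions over few dishes that share 1 scale, since every TPM depends on the total. No count over pairs of all genes tested stands beside them, so they are not read as particular to the members.

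The 5 tested genes outside the members that most resembled their mean deviation over the 8 dishes were Mob4 (Pearson's r 0.97, Spearman's rho 0.93), Gm3555 (0.97 and 0.95), Tpra1 (0.96 and 0.95), Prpf39 (0.96 and 1) and Gm37795 (0.96 and 0.93). They were picked as the closest of the genes tested, so high values are fixed by the choice. Their log2 differences between conditions ran from −0.23 for Gm37795 to 0.06 for Gm3555, and none had a limma adjusted p under 0.05.

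The snoRNAs themselves were almost unmeasured in these polyadenylated libraries. Of the 33 snoRNA and scaRNA genes inside the members, 30 were listed at 0 TPM in every dish, as were 1539 of all 1558 such genes in the tables. A listed 0 here can also stand for reads assigned to the overlapping host. The exceptions were Snora73a and Snora73b of Snhg3 and the scaRNA Gm26083 of Snhg20, the last with 6.92 TPM in 1 dish. Snora73b read 0, 8.68, 19.4 and 12.8 TPM in control dishes and 1.03, 2.84, 15.2 and 8.07 TPM in exposed dishes, so the groups overlapped over a wide range. Snora73a and Snora73b, each 205 bases long, differ at 7 positions.

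Neighbours that start within 2000 bases on the opposite strand were annotated for Gas5 (Zbtb37, 427 bases away), Snhg1 (Slc3a2, 106 bases) and Snhg3 (Gm17300, 1914 bases). Slc3a2, which encodes the heavy chain of amino acid transporters, read 407, 415, 409 and 405 TPM in control dishes and 429, 433, 426 and 434 TPM in exposed dishes. All exposed dishes were above all control dishes for Slc3a2, while its neighbour Snhg1 was lower in 3 of 4 exposed dishes than in any control dish. The log2 difference of Slc3a2 was 0.07, with a limma adjusted p of 0.142, and it was 0.04 under each other scaling. Zbtb37 and Gm17300 had log2 differences of −0.10 (limma adjusted p of 0.592) and −0.22 (limma adjusted p of 0.296).

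Other hosts were compared to see whether the lower values went with carrying a snoRNA. Of 13 other noncoding hosts listed, 12 were in the tables and 9 were tested, with a median log2 difference of −0.04, 7 of 9 below 0 beside 36.3% of all genes tested, and 1 lower at an unadjusted p under 0.05, Snhg10, beside 3.65%. After each other scaling 8 of 9 were below 0, beside 50.8% to 53% of all genes tested. The median was −0.07 after each other scaling, −0.10 without control replicate 1, −0.08 without control replicate 4, −0.07 without control replicate 3, −0.06 without exposed replicate 4 and −0.02 without control replicate 2. The number lower at an unadjusted p under 0.05 was between 0 and 2 in the alternatives. It was 0 without control replicate 3, control replicate 4, exposed replicate 1 or exposed replicate 3. It was 2 after upper-quartile scaling and without mitochondrial genes, beside 6.6% and 5.57% of all genes tested. Snhg10 read 2.04, 1.3, 1.80 and 1.95 TPM in control dishes and 0.47, 2.00, 0.96 and 0.63 TPM in exposed dishes, near the limit of the filter, with exposed replicate 2 among the controls. Zfas1 had the next smallest p below 0, at a log2 difference of −0.09 (limma adjusted p of 0.439). The entries with the smallest p above 0 were Epb41l4aos, at 0.17 (limma adjusted p of 0.645), and 2410006H16Rik, at 0.02 (limma adjusted p of 0.902), which was below 0 after each other scaling.

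Protein-coding snoRNA hosts, mostly genes for ribosomal proteins and translation factors, were mostly above 0, as were all genes tested as deposited. GENCODE M21 places a snoRNA gene inside 33 of the 34, with Rps24 as the exception. All 34 were tested, 30 of 34 were above 0 beside 63.7% of all genes tested, and the median log2 difference was 0.06. At an unadjusted p under 0.05, 17 were higher and 1 was lower, beside 12% and 3.65% of all genes tested. After scaling by the upper quartile or by the median of ratios the number higher was 9 of 34, and 10 of 34 after rescaling without mitochondrial genes, and under each of these 25 of 34 were above 0, beside 47% to 49.2% of all genes tested. Of all genes tested, 4.85% were higher and 6.6% lower by that rule after upper-quartile scaling, 5.54% and 6.22% after median-of-ratios scaling, and 5.7% and 5.57% without mitochondrial genes. The 24 ribosomal protein genes had a median of 0.05, with 9 higher by that rule, and the 10 others a median of 0.09, with 8 higher.

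Ncl (nucleolin, which acts in ribosome assembly) read 603, 577, 572 and 596 TPM in control and 649, 650.5, 636 and 641 TPM in exposed dishes. All exposed dishes were above all control dishes. Its log2 difference was 0.13 (limma adjusted p of 0.122), and that of Rps2, a protein of the small ribosomal subunit, was 0.16 (limma adjusted p of 0.122). Eif4a2, a helicase of translation initiation, was the only one lower by that rule among the 4 of 34 below 0, and read 188, 205, 216 and 196 TPM in control and 183, 173, 182 and 184 TPM in exposed dishes. Every exposed dish was below every control dish for Eif4a2, at a log2 difference of −0.15 (limma adjusted p of 0.148). Rpl17 had the next smallest p below 0, at −0.02 (limma adjusted p of 0.727).

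The median of the 10 members lay 0.17 below that of the protein-coding hosts on the log2 scale. Written as members minus protein-coding hosts, this distance was between −0.20 and −0.15 in every alternative run. Both ends of this range came from leaving out a dish. The distance was −0.17 under each of the other 3 scalings. Each scaling divides a whole dish by a common factor, which shifts both sets almost equally, so these values could hardly differ. The filters, the replicate block and the robust variance left the distance at −0.17 by design, so their agreement adds nothing. No test of this distance was made, because the members were chosen with results known.

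**Figure D4:**
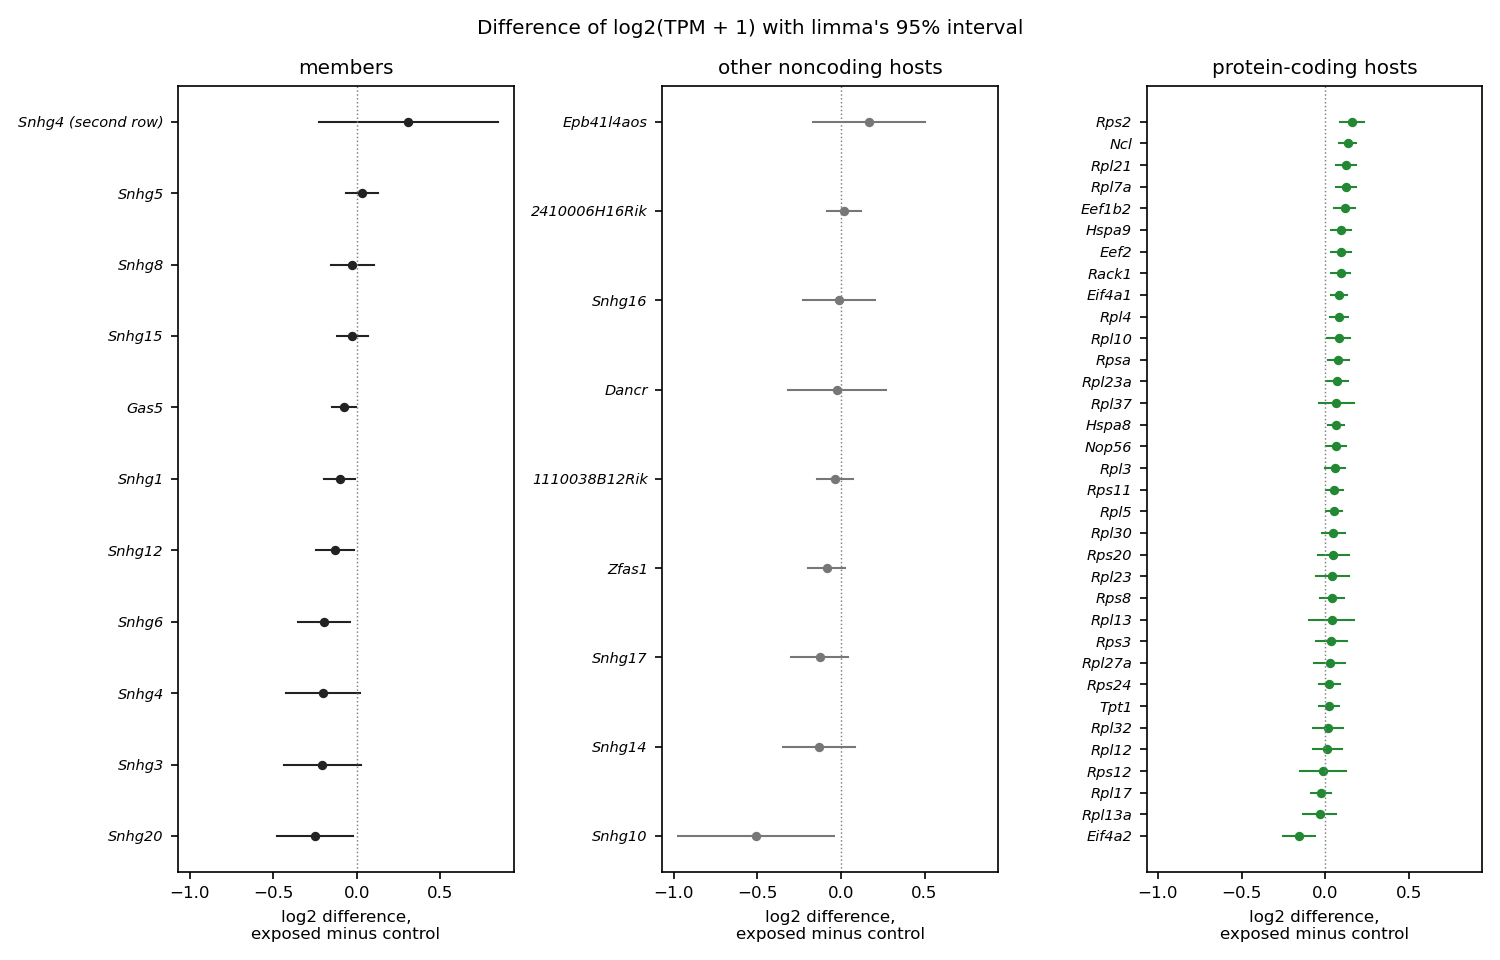
Log2 difference (exposed minus control) with limma's 95% interval for the 10 members and the second Snhg4 entry, 9 other noncoding hosts and 34 protein-coding hosts. Of the members 9 of 10 are below 0, and of the protein-coding hosts 30 of 34 are above 0, where 36.3% of all genes tested are below 0 and 63.7% above 0.

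**Figure D5:**
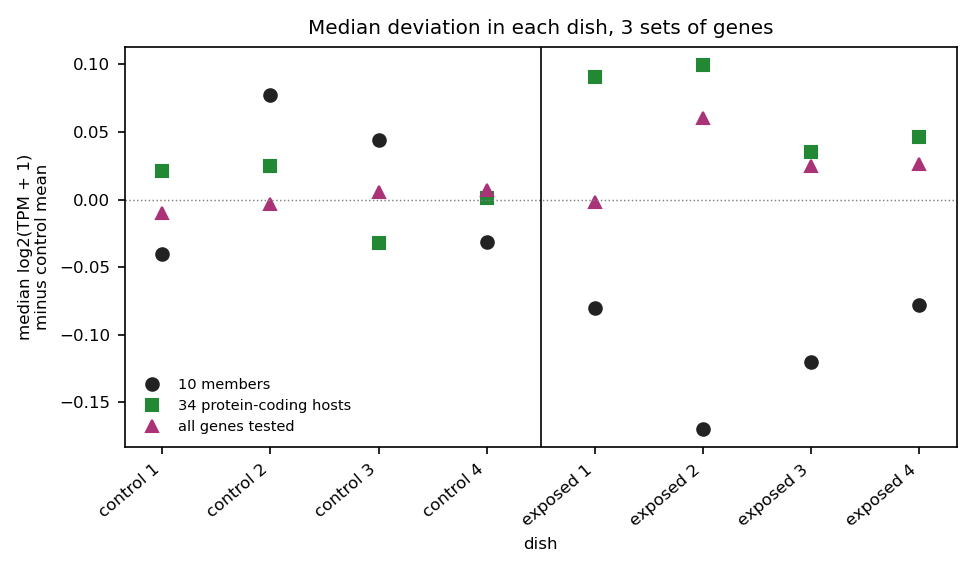
Median over the 10 members, the 34 protein-coding hosts and all genes tested of log2(TPM + 1) minus the control mean, in each dish. The members' median is below 0 in all 4 exposed dishes, from −0.17 in replicate 2 to −0.08 in replicate 4, and also in control replicates 1 and 4.

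The proteins that package snoRNAs were described in the same way. All 8 core proteins of the C/D and H/ACA particles were above 0, beside 63.7% of all genes tested, with a median log2 difference of 0.09, and 7 of 8 were higher at an unadjusted p under 0.05, beside 12% of all genes tested. After each other scaling 7 of 8 were above 0 and 4 of 8 were higher, beside 47% to 49.2% and 4.85% to 5.7% of all genes tested. The methyltransferase Fbl read 283, 277, 275 and 277 TPM in control and 300.2, 303, 290.3 and 299.8 TPM in exposed dishes. Every exposed dish of Fbl was above every control dish, at a log2 difference of 0.10, and Nhp2, an H/ACA protein, differed by 0.16, each with a limma adjusted p of 0.122. Of 10 assembly factors, 4 were higher and 0 lower by the same rule. After scaling by the upper quartile or the median of ratios, 3 were higher. The smallest p belonged to Nolc1 (log2 difference of 0.15) and Ruvbl1 (log2 difference of 0.11). Pih1d1 was the only one below 0, at −0.03, joined by Naf1 after each other scaling.

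Factors of nonsense-mediated decay (22 genes), which removes the spliced RNA of several noncoding hosts, were also described. Their median log2 difference was 0.03, equal to that of all genes tested. At an unadjusted p under 0.05, 4 of 22 (18.2%) were higher and 0 lower, near the 12% and 3.65% of all genes tested. After scaling by the upper quartile this median was −0.01 with 1 higher and 1 lower, after the median of ratios −0.00 with 2 higher and 1 lower, and without mitochondrial genes −0.00 with 3 higher and 0 lower, where 4.85%, 5.54% and 5.7% of all genes tested were higher. Eif4a3 (exon junction complex) and Gspt1 (translation termination) had the smallest p above 0, each at a log2 difference of 0.11, with limma adjusted p of 0.123 and 0.166. Dhx34 had the smallest p below 0, at a log2 difference of −0.10. Upf1, the central helicase, ranged from 44.9 to 48.2 TPM in control and from 46.9 to 50.6 TPM in exposed dishes, and was named after its values were seen.

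Of 8 known targets of the same decay pathway outside the members, 2 were higher and 1 was lower at an unadjusted p under 0.05. Their median log2 difference was −0.03, and after each other scaling 1 was higher and 2 were lower. In a list of 8, a single gene is 12.5%, beside 12% of all genes tested that were higher and 3.65% that were lower as deposited, and 4.85% to 5.7% and 5.57% to 6.6% after the other scalings. Atf4 read 301, 303, 295 and 303 TPM in control and 313, 317, 311 and 309 TPM in exposed dishes, with the groups apart and a log2 difference of 0.06 (limma adjusted p of 0.217). Upp1 differed by 0.21 (limma adjusted p of 0.217). Gadd45b differed by −0.08 (limma adjusted p of 0.316), with every exposed dish below every control dish, and Tbl2 by −0.10 (limma adjusted p of 0.399). In all, 5 of the 8 were below 0, beside 36.3% of all genes tested as deposited, and also 5 of 8 after each other scaling, beside 50.8% to 53%.

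The share of TPM held by mitochondrial genes moved with the comparison. It was 8.72%, 8.69%, 9.42% and 8.93% in control replicates 1 to 4. In exposed replicates 1 to 4 it was 6.96%, 5.99%, 7.69% and 7.52%, lowest in replicate 2. A smaller mitochondrial share raises the TPM of all other genes. After rescaling without mitochondrial genes, the members' median was −0.15, 9 of 10 were below 0 and 6 of 10 were lower at an unadjusted p under 0.05, where 51% of all genes tested were below 0 and 5.57% were lower by that rule under the same scaling. Scaling also moved the balance of calls over all genes: 76.6% of the calls at an unadjusted p under 0.05 were higher as deposited, 42.4% after upper-quartile scaling, 47.1% after median-of-ratios scaling and 50.6% without mitochondrial genes.

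Cell identity was checked against markers. Of 8 hepatocyte markers 7 were tested, and Fga was below the filter. Alb alone was lower at an unadjusted p under 0.05, 1 of 7 beside 3.65% of all genes tested. The 8 markers summed to between 1595 and 1667 TPM in control and between 1593 and 1714 TPM in exposed dishes. Trf led at a control mean of 823 TPM, then Ttr (358), Apob (207), Hnf4a (187) and Alb (55.1). Serpina1a (5.66 TPM) and Apoa1 (4.54 TPM) were low. The keratins Krt8 and Krt18 summed to between 4031 and 4217 TPM in control and between 4296 and 4503 TPM in exposed dishes. Both were higher by that rule, beside 12% of all genes tested. After rescaling without mitochondrial genes 1 of 2 was higher, beside 5.7%. None was higher after scaling by the upper quartile or the median of ratios, beside 4.85% and 5.54%. Of 5 bile duct markers 4 were tested, with 0 higher and 0 lower by that rule under each scaling: Krt19 was above 1000 TPM in every dish, Spp1 lay between 379 and 394 TPM, Krt7 between 63.5 and 75.4 TPM and Sox9 between 29.8 and 32.1 TPM. Epcam, at most 0.13 TPM in any dish, was below the filter. Fibroblast markers summed to at most 1.60 TPM and endothelial markers to at most 0.08 TPM in any dish, and of 4 leukocyte markers only Cd68 was tested. Cdh5 and Adgre1 were listed at 0 in every dish. Whether the keratins' difference has a part in the members' values was not tested.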

How the data were processed

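RNA of 8 dishes was sequenced after stranded mRNA library preparation. According to the submitters' processing notes, reads were handled with Trimmomatic 0.39, STAR 2.7.4a and RSEM 1.3.3 on mm10, and the authors deposited TPM for 55401 genes per dish; the annotation is not given in the sources used here. Depth and counting error are unknown.

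Genes with TPM of at least 1 in at least 4 dishes were tested on log2(TPM + 1) with limma 3.58.1 (lmFit, eBayes with trend) in R 4.3.3, two-sided, with Benjamini-Hochberg adjustment over all 12122 genes. The fit was tested on simulated data. Positions came from GENCODE M21 and RefSeq; 55141 identifiers matched M21.

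The members and lists were chosen with earlier results of these data known. Genes named were every member, its nearest opposite-strand neighbour, the 2 smallest p in each direction of each list, and the 5 genes closest to the members' mean deviation; marker genes and others named are exceptions, and some genes under this rule are left out. Alternatives covered the pseudocount, filter, scaling, replicate block, variance estimate and leaving out each dish.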

Additional observations from a re-analysis of the deposited data

Results flagged for a closer look

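Snhg3 in exposed replicate 2, at 49.45 TPM, lay far below the other exposed dishes, which were between 63.4 and 64.9 TPM. Its gap to the nearest dish was 0.902 of the group's range. Dixon's criterion was applied to 22 groups of 4 dishes, and chance passes about 1 in 20 groups, so 1 such dish is near what chance gives. The same dish was the lowest of the 8 for 5 of the 10 members, and no share over all genes tested stands beside this count.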

How the results depend on the processing

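The members' median log2 difference was below 0 in all 17 alternatives, from −0.15 to −0.09, and no member passed an adjusted p under 0.05 in any. The filters, the replicate block and the robust variance left this median at −0.12 by design, so their agreement adds nothing. The number of members lower at an unadjusted p under 0.05 was 5 as reported, 3 with no filter, and between 0 and 7 without 1 dish (0 without exposed replicate 2, 7 without control replicate 1). With a replicate block, as if equal numbers were paired, 4 members were lower by that rule. The number higher was 0 in all 17.

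The log2 difference of Snhg5 was −0.0035 after upper-quartile scaling and between −0.0070 and 0.063 without 1 dish. That of Snhg8 was between −0.090 and 0.0054, and that of Snhg15 between −0.051 and 0.0086, without 1 dish. The other members kept their direction in each alternative. The cause of these reversals was not tested.

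The number of genes with an adjusted p under 0.05 was 1 with TPM of at least 1 in every dish, 1 after upper-quartile scaling, 1 after median-of-ratios scaling, 1 after rescaling without mitochondrial genes and 1 with robust variance, and between 0 and 2 without 1 dish. The cause was not tested.

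For the protein-coding hosts, these comparisons being chosen after the data were seen, the median was 0.023 after upper-quartile scaling, 0.028 after median-of-ratios scaling and 0.027 without mitochondrial genes, with 9, 9 and 10 genes higher, in step with a median of all genes that these scalings bring near 0. Adding both Snhg4 entries together, also chosen later, left 5 members lower and gave Snhg4 a log2 difference of −0.15. Tests for read counts, edgeR and DESeq2 among them, could not be used on TPM and so were left unrun. Depth is unknown, and no detection limit can be given.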
